A study of Mus musculus with 13 samples.

Results

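The 10 transcripts described here are mt-Nd1, mt-Nd2, mt-Nd4, mt-Nd5, mt-Nd6, mt-Cytb, mt-Co1, mt-Co2, mt-Co3 and mt-Atp6, which mitochondrial DNA encodes for the respiratory chain and ATP synthase. They were chosen by name, through the Ensembl identifiers of the deposited table, and are 10 of the 13 protein-coding genes of the mitochondrial genome and 10 of the 55642 genes listed. All 10 passed the filter on low counts, which kept 16848 genes for testing. RNAseq was performed on the mouse myoblast line C2C12, whose cells fuse into myotubes when the serum is changed. The cells were depleted of YBX3, an RNA and DNA binding protein with a cold shock domain, by siRNAs (YBX3 KD), or received nontargeting siRNAs (control KD). Proliferating myoblasts (0 day) stayed in fetal bovine serum and differentiating myoblasts (1 day) were moved to horse serum 24 h after transfection, and all were harvested at 48 h. At 0 day each treatment had 4 libraries (replicates A to D). At 1 day control KD had 2 (replicates C and D) and YBX3 KD had 3 (replicates B to D). All came from 1 cell line, every control had itself been transfected, and the titles call the libraries biological replicates.

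Mitochondria keep a small circular genome that is read from both strands as long precursor RNAs. The precursors are cut, mostly at the tRNAs that lie between the genes, into messenger RNAs, ribosomal RNAs and tRNAs, and the messenger RNAs are translated by ribosomes inside the organelle. Their protein products sit at the core of complexes I, III, IV and V of oxidative phosphorylation, beside many subunits made from nuclear genes. Skeletal muscle relies on these complexes for ATP, and myoblasts are known to expand their mitochondria as they form myotubes. In mammals several of these genes end in an incomplete stop codon that the poly(A) tail completes.

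Total counts ranged from 33451547 to 71811371 per library. Ybx3 itself was at 264.5 to 346.6 CPM (a library's counts scaled to a common total, with TMM factors) in the 6 control KD libraries. It was at 28.69 to 71.51 CPM in the 7 YBX3 KD libraries, so the libraries matched their siRNA labels. Ybx3 does not bear on the day labels. Of the 6 myoblast markers, Vim (3020 to 4730 CPM), Cdh15 (99.6 to 163 CPM), Myf5 (31.3 to 73.5 CPM) and Des (15.5 to 54.8 CPM) were present. Myod1 was low, at 0.601 to 3.32 CPM, and Pax7 did not pass 0.179 CPM. Of 9 markers of differentiating myocytes and myotubes, 4 had a median above 1 CPM, and Mymx and Actc1 stayed near 0. Their summed level at 0 day lay between 6.54 and 56 CPM in control KD and between 22.4 and 60.4 CPM in YBX3 KD. At 1 day it lay between 7.13 and 25.2 CPM and between 15.5 and 124 CPM, so the groups overlapped on both days. Within each treatment the 0 day and 1 day ranges overlapped as well, so the summed markers did not separate the day labels. The part of these markers in the results below was not tested. Markers of macrophages, endothelial cells and adipocytes summed to at most 3.92, 1.46 and 0.176 CPM. Epithelial markers summed to 4.43 to 29.8 CPM, nearly all from Krt14, with Epcam at 0 throughout.

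A feature of the mouse genome bears on 5 of the 10 rows. The stretch chrM:6390-11042 (GRCm39), 4653 bases or 28.5% of the mitochondrial genome, lies again in nuclear DNA at chr1:24650616-24655269 on the minus strand. The pair of stretches was 99.936% identical, with 2 mismatches and 1 gap base. The nuclear stretch carries annotated pseudogenes, which the authors' table lists as rows of their own. Gm28661 matched 681 of the 684 bases of mt-Co2, Atp6-ps matched 678 of the 681 bases of mt-Atp6, and Gm28437 matched 783 of the 784 bases of mt-Co3, each without a mismatch. Gm28439 matched the first 876 of the 1378 bases of mt-Nd4 and Gm29216 the last 483 of the 1545 bases of mt-Co1. The other 5 transcripts (mt-Nd1, mt-Nd2, mt-Nd5, mt-Nd6 and mt-Cytb) had no annotated copy at 99% identity or above over at least 100 bases.

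**Figure D1:**
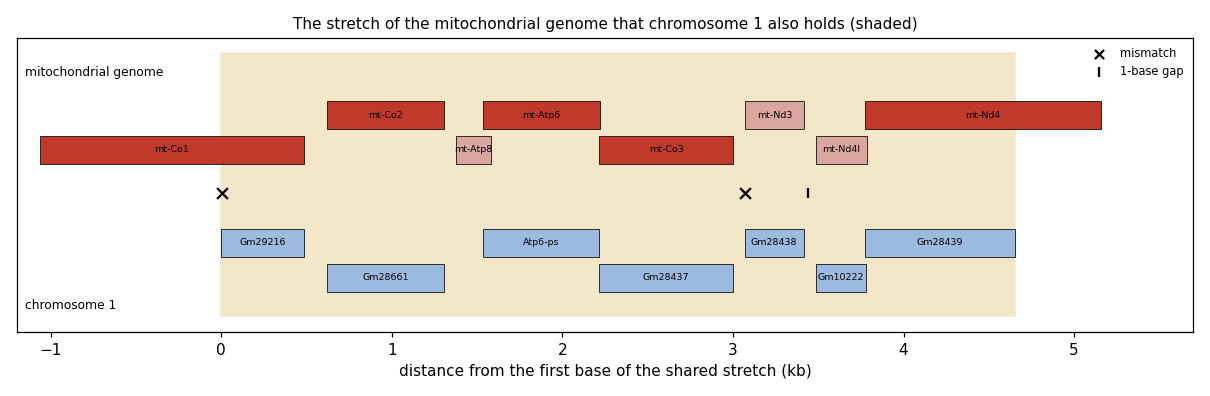
Map of the shared stretch, in kb from its first base on the mitochondrial genome. Bars above the middle line are mitochondrial genes (dark red for the 10 transcripts described, pale for the others), bars below it are the chromosome 1 copies, and the marks between them show the 2 mismatches and the 1 gap base. Gm28661, Atp6-ps and Gm28437 cover mt-Co2, mt-Atp6 and mt-Co3 almost whole.

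The 3′ ends of these genes and of their annotated copies show how little separates the rows. Capitals mark the bases that belong to the mitochondrial gene and lie past the annotated end of its copy. The genome at chromosome 1 reads the same TAA or T there, so the rows differ in annotation and not in sequence.
mt-Co2: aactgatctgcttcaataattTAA
Gm28661: gaaaactgatctgcttcaataatt
mt-Atp6: ctatatctacatgataatacaTAA
Atp6-ps: agcctatatctacatgataataca
mt-Co3: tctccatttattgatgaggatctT
Gm28437: gtctccatttattgatgaggatct
These are chrM:7673-7696 and chr1:24653966-24653989, chrM:8584-8607 and chr1:24653055-24653078, and chrM:9367-9390 and chr1:24652270-24652293, with the chromosome 1 sequences on the minus strand. The only mismatch within the 10 genes was A1066T in mt-Co1 (mitochondrial base first, counted from the first base of the gene), shown in capitals.
mt-Co1: tctaaccggaAttgttttatc
Gm29216: attggcaggaTttgttttatc
These are chrM:6383-6403 and chr1:24655256-24655276 on the minus strand, and the letters at the left that also differ lie outside the shared stretch. The mt-Co3 end above is an incomplete stop codon, a lone T, and the same was read at the ends of mt-Nd4 and mt-Cytb, where the capital marks it.
mt-Nd4: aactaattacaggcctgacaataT
mt-Cytb: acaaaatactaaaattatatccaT
These are chrM:11521-11544 and chrM:15265-15288 (GRCm39, plus strand).

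The deposited counts were split between each gene and its copy very unevenly. The mt-Co2 row held a median of 1.90% of the counts of mt-Co2 and Gm28661 together (1.35% to 4.62% over the 13 libraries). The mt-Atp6 row held 4.94% (3.27% to 16.9%) and the mt-Co3 row 12.6% (5.87% to 19.7%). The mt-Co1 row held 97.6% (96.3% to 98.4%) and the mt-Nd4 row 97.5% (95.6% to 100%). Their copies match only 483 of 1545 and 876 of 1378 bases, so these percentages also hold counts from bases without a copy. They are therefore not a like measure of how shared reads were split. By mean CPM among all tested genes, Gm28661 and Atp6-ps ranked 5 and 6, while mt-Co2 ranked 2236 and mt-Atp6 623. The split also varied between replicates. The mean coefficient of variation within groups was 44.3% for the mt-Atp6 row and 14.6% for its sum with Atp6-ps, 37% and 13.7% for mt-Co2, and 29.3% and 8.63% for mt-Co3. YBX3 KD replicate B at 1 day had the largest share in the mitochondrial row for mt-Co2 and mt-Atp6 and the smallest for mt-Co3. Values are therefore given for the deposited rows, and for these genes also with the copy added. How Salmon divided reads between the copies was not tested.

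**Figure D2:**
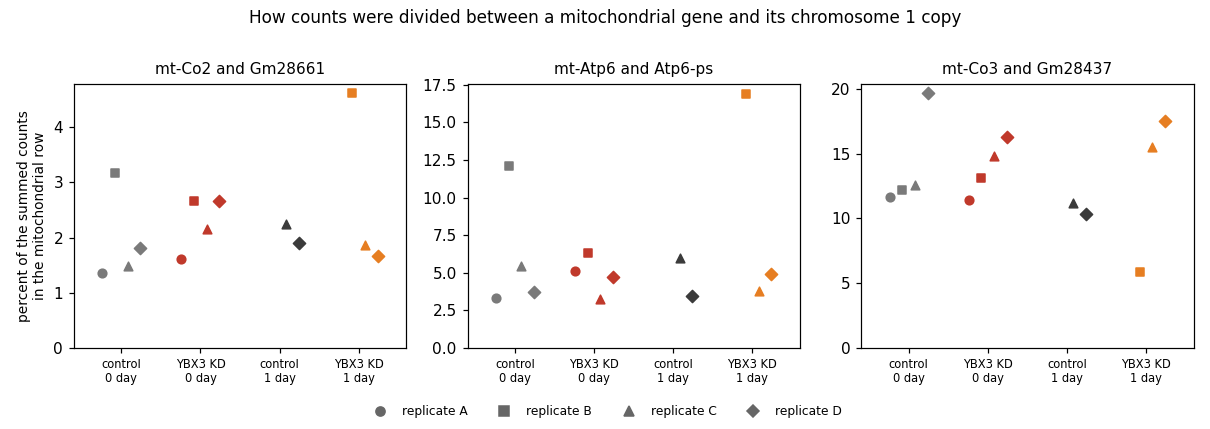
Percent of the summed counts of a gene and its chromosome 1 copy that the mitochondrial row held, with 1 point per library, groups along the x axis and the replicate letter as the marker. In YBX3 KD at 1 day, replicate B stands at 4.62% for mt-Co2 and 16.9% for mt-Atp6, above every other library, and at 5.87% for mt-Co3, below every other library.

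Together, the 10 transcripts held a larger share of the library after YBX3 KD in every pair of the same letter and day. In control KD at 0 day their share of all counts was 2.72%, 2.04%, 2.44% and 2.47% in replicates A to D, and in YBX3 KD at 0 day it was 3.31%, 2.62%, 4.06% and 2.71%. At 1 day it was 1.79% and 1.31% in control KD replicates C and D and 2.65%, 2.57% and 2.65% in YBX3 KD replicates B, C and D. The ratio of YBX3 KD to control KD within these 6 pairs was 1.10-fold (replicate D at 0 day) to 2.03-fold (replicate D at 1 day). The group means were 2.42% ± 0.284 (SD, n = 4) and 3.17% ± 0.668 (n = 4) at 0 day, with overlapping ranges, and 1.55% ± 0.339 (n = 2) and 2.63% ± 0.0474 (n = 3) at 1 day, without overlap. With the 5 copies added, the means were 3.51% and 4.65% at 0 day and 2.32% and 3.78% at 1 day. The share is a description over a chosen set of genes and was not tested. It is relative to all other RNA in the library, and in bulk RNA a change in the mix of cells and a change in the RNA per cell cannot be told apart.

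**Figure D3:**
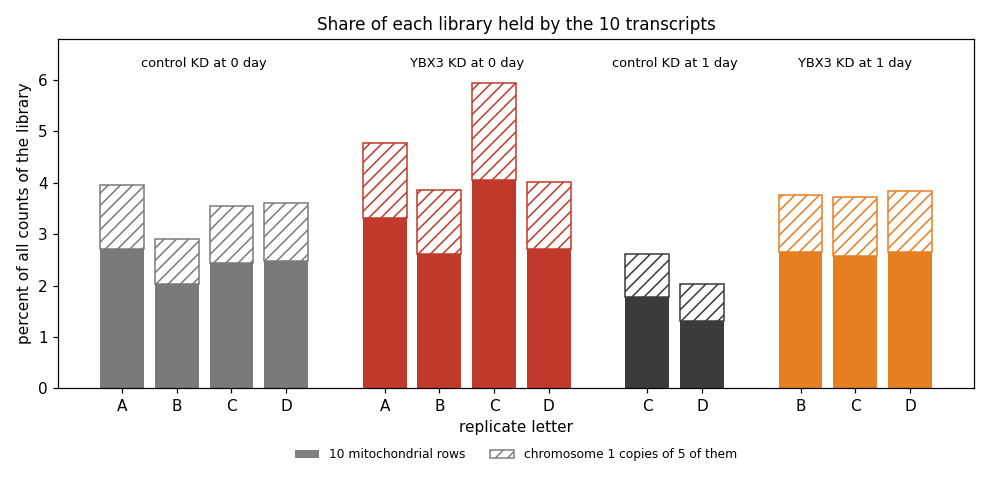
Percent of all counts of each library held by the 10 mitochondrial rows (solid) and by the chromosome 1 copies of 5 of them (hatched), with 1 bar per library. Solid bars reach 1.31% to 2.72% in control KD and 2.57% to 4.06% in YBX3 KD, and YBX3 KD replicate C at 0 day is the tallest.

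Levels were then compared between the transcripts per kilobase of gene (CPM per kb, mean ± SD over the 13 libraries). The core subunit of complex IV, mt-Co1, stood highest at 8047 ± 1942 CPM per kb and was also the most abundant of all tested genes by mean CPM (12430). It held 44.3% to 53.2% of the summed counts of the 10 rows. Next came mt-Nd1 (3745 ± 956.9), mt-Cytb (2984 ± 888), mt-Nd4 (1774 ± 617), mt-Nd2 (1754 ± 536) and mt-Nd5 (652 ± 269 CPM per kb). The neighbors mt-Nd1 and mt-Cytb, and mt-Nd4 and mt-Nd2, differed by less than their spread. The deposited rows of mt-Co3 (504 ± 199.9), mt-Atp6 (387 ± 212) and mt-Co2 (150.3 ± 71.3 CPM per kb) came below these. With the copies added the order changed. The sums were 6753 ± 1749 CPM per kb for mt-Atp6, 6687 ± 1681 for mt-Co2 and 3745 ± 911 for mt-Co3, so that mt-Atp6 and mt-Co2, which did not differ beyond their spread, came directly after mt-Co1. The lowest in either order was mt-Nd6 at 19.4 ± 11.9 CPM per kb, with 185 to 1078 counts in a library. It is the only 1 of the 10 on the minus strand, at chrM:13552-14070 (GRCm39), and it shares 14 bases with the end of mt-Nd5 on the plus strand. The paper calls the libraries stranded and names an Illumina stranded mRNA kit, but also a TruSeq RNA preparation kit. Whether the counting used strand is not given in the sources used here.

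Upon YBX3 KD, all 10 transcripts had higher estimated levels over both days, with the day as a term in edgeR's quasi-likelihood model. The log2 fold changes lay between 0.40 and 0.80 with a median of 0.60 (1.52-fold), while the median of all tested genes was 0.00215 and 50.4% of them were above 0. None of the 10 met the threshold of the study, a fold change above 1.3 with an adjusted p-value under 0.001, which 0.113% of all tested genes met. Those with an adjusted p under 0.05 were 2 (mt-Nd4 and mt-Cytb), where 2.59% of all genes passed, and 8 had an unadjusted p under 0.05, as did 2797 of the 16848 genes tested. Neither mt-Nd4 nor mt-Cytb passed at 0.05 without the day term, or without any 1 of several libraries, which are listed with mt-Cytb below. The replicate letters were taken to pair the libraries, from correlations in these same counts, although the title numbers disagree with them at 1 day. With the letter as a block 6 of the 10 had an adjusted p under 0.05 (mt-Nd1, mt-Nd2, mt-Nd4, mt-Nd5, mt-Cytb and mt-Co3), where 10.6% of all genes passed. Still none met the threshold of the study. With the copies added there were 4 (mt-Nd4, mt-Cytb, mt-Co2 and mt-Co3), where 2.6% of all genes passed. DESeq2 gave 4 and limma-voom 6 at an adjusted p under 0.05, where 1179 and 3088 of all genes passed, and neither gave a transcript past the threshold of the study. The ranges of control KD and YBX3 KD over both days overlapped for all 10 rows, whereas YBX3 KD was wholly higher for 0.95% of all genes.

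**Figure D4:**
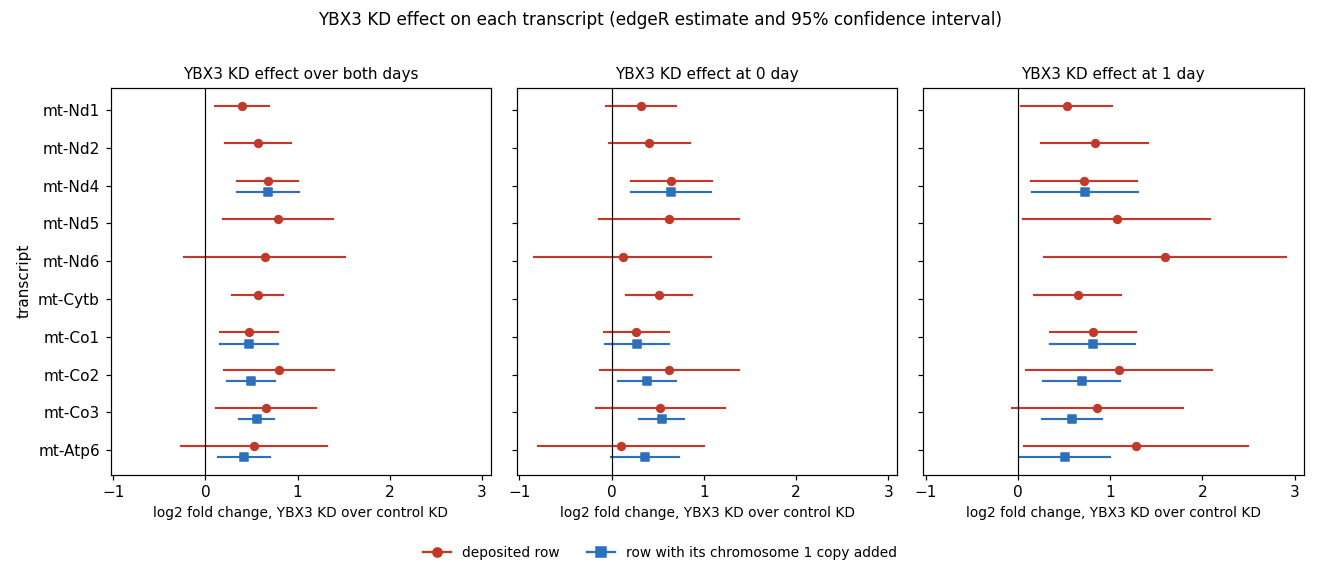
Estimated log2 fold change of each transcript upon YBX3 KD (x axis) with its 95% confidence interval, over both days (left), at 0 day (middle) and at 1 day (right). Circles are deposited rows and squares are rows with the chromosome 1 copy added; every estimate lies above 0, and adding the copy narrows the interval for mt-Co2, mt-Co3 and mt-Atp6.

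Complex I, NADH dehydrogenase, passes electrons from NADH to ubiquinone, and mt-Nd4 (chrM:10167-11544) encodes 1 of its proton-pumping membrane subunits. Its level was 2646, 1640, 2282 and 1957 CPM in control KD replicates A to D at 0 day and 3458, 2592, 4445 and 2874 CPM in YBX3 KD. In differentiating myoblasts it was 1672 and 1176 CPM in control KD replicates C and D and 2293, 2728 and 2026 CPM in YBX3 KD replicates B, C and D. The groups overlapped at 0 day, since control KD replicate A was above YBX3 KD replicate B, and did not overlap at 1 day. All 6 pairs of the same letter and day were higher after YBX3 KD, by 1.31-fold to 1.95-fold. Over both days the log2 fold change was 0.68 (SE 0.15, adjusted p = 0.0367), and 0.71 (SE 0.09, adjusted p = 0.00269) when blocked by letter. The adjusted p ranged from 1.01e-11 to 0.128 over 27 other settings of the analysis, which include those with the copy added, and was under 0.05 in 18 of them.

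The quinone side of complex I also needs mt-Nd1 (chrM:2751-3707), at 2734 to 3885 CPM in control KD and 3606 to 5995 CPM in YBX3 KD at 0 day. At 1 day mt-Nd1 was at 2698 and 2121 CPM in control KD and 3355, 3299 and 3776 CPM in YBX3 KD. Its log2 fold change over both days was the smallest of the 10, 0.40 (SE 0.14, adjusted p = 0.148). The membrane subunit mt-Nd2 (chrM:3914-4951) was at 1739, 1323, 1914 and 1761 CPM in control KD replicates A to D and at 2074, 1903, 3290 and 1684 CPM in YBX3 KD at 0 day. In replicate D at 0 day it was thus slightly lower after YBX3 KD, the only such pair of 6. Its log2 fold change over both days was 0.57 (SE 0.17, adjusted p = 0.0963). Blocked by letter, the adjusted p was 0.0477 for mt-Nd1 and 0.0321 for mt-Nd2. Over all 27 settings it ranged from 0.00614 to 0.32 and from 0.00142 to 0.215.

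The distal membrane subunit mt-Nd5 (chrM:11742-13565) varied widely, from 325.3 CPM in control KD replicate D at 1 day to 2269 CPM in YBX3 KD replicate C at 0 day. Its other control KD library at 1 day, replicate C, was at 966 CPM. All 6 pairs were higher after YBX3 KD, by 1.03-fold to 3.34-fold, and the largest ratio came from replicate D at 1 day. Its estimate over both days was 0.79 (log2 scale, SE 0.28, adjusted p = 0.161). Blocked by letter, the adjusted p was 0.0239, in a range of 0.000191 to 0.328 over the 27 settings. The membrane subunit mt-Nd6 was at 4.736 to 14.8 CPM in control KD and 5.773 to 11.97 CPM in YBX3 KD at 0 day. In differentiating myoblasts it was at 5.528 and 4.834 CPM in control KD and at 10.87, 8.915 and 27.59 CPM in YBX3 KD, where replicate D was far above the others. Its log2 fold change over both days was 0.64 (SE 0.40, adjusted p = 0.466).

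Complex III, which passes electrons from ubiquinol to cytochrome c, contains 1 mitochondrially encoded subunit, cytochrome b, from mt-Cytb (chrM:14145-15288). Its level at 0 day was 3821, 2681, 3183 and 2900 CPM in control KD replicates A to D and 4812, 3655, 5684 and 3820 CPM in YBX3 KD. In differentiating myoblasts it was 2376 and 1743 CPM in control KD and 3416, 3247 and 3044 CPM in YBX3 KD. Only control KD replicate A reached into the range of YBX3 KD at 0 day, and at 1 day the groups were apart. All 6 pairs were higher after YBX3 KD, by 1.26-fold to 1.79-fold. Over both days the log2 fold change was 0.57 (SE 0.13, adjusted p = 0.0355), and 0.58 (SE 0.10, adjusted p = 0.00736) when blocked by letter. The adjusted p ranged from 4.06e-07 to 0.172 over the 27 settings and was under 0.05 in 18. In 13 of the settings 1 library was left out, and neither mt-Cytb nor mt-Nd4 had an adjusted p under 0.05 without control KD replicate B or C at 0 day, control KD C or D at 1 day, YBX3 KD A or C at 0 day, or YBX3 KD B or C at 1 day.

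Complex IV, cytochrome c oxidase, hands the electrons to oxygen, and its catalytic core is built from mt-Co1, mt-Co2 and mt-Co3. The subunit with the heme and copper center, mt-Co1 (chrM:5328-6872), was at 13370, 10510, 11490 and 13570 CPM in control KD replicates A to D at 0 day and at 15840, 12310, 18130 and 12720 CPM in YBX3 KD. At 1 day mt-Co1 was at 8561 and 6200 CPM in control KD and 13310, 11750 and 13880 CPM in YBX3 KD. At 0 day the groups overlapped and replicate D was slightly lower after YBX3 KD, whereas at 1 day every YBX3 KD library was above both controls. The log2 fold change was 0.47 (SE 0.15, adjusted p = 0.113) over both days, 0.27 (SE 0.16, adjusted p = 0.567) at 0 day and 0.81 (SE 0.21, adjusted p = 0.392) at 1 day. Adding Gm29216 left these at 0.47, 0.28 and 0.81.

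The cytochrome c docking subunit, mt-Co2 (chrM:7013-7696), had the largest estimate in the deposited rows, a log2 fold change of 0.80 (SE 0.27, adjusted p = 0.153) over both days. That row was at 47.3 to 117 CPM in control KD and 76.1 to 226.1 CPM in YBX3 KD, and YBX3 KD replicate B at 1 day held the top value. With Gm28661 added, the level at 0 day was 4767, 3692, 4323 and 4575 CPM in control KD replicates A to D and 5644, 4809, 7256 and 4954 CPM in YBX3 KD, without overlap. At 1 day the sum was 3195 and 2487 CPM in control KD and 4892, 4288 and 4579 CPM in YBX3 KD, again without overlap. The sum had a smaller log2 fold change over both days and a smaller error, 0.50 (SE 0.12, adjusted p = 0.0471). The adjusted p of mt-Co2 over the 27 settings, which include those with the copy added, ranged from 0.00699 to 0.303.

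The third core subunit, mt-Co3 (chrM:8607-9390), was at 319.3, 278.6, 325.1 and 523.2 CPM in control KD replicates A to D at 0 day and at 423.9, 412.6, 678.1 and 573.1 CPM in YBX3 KD. At 1 day mt-Co3 was at 234.8 and 195.8 CPM in control KD and 168.4, 479.8 and 526.2 CPM in YBX3 KD, where replicate B was below both controls. With Gm28437 added the same library no longer stood apart. The sum was 2739, 2285, 2587 and 2656 CPM in control KD and 3700, 3150, 4568 and 3520 CPM in YBX3 KD at 0 day, and 2093 and 1899 CPM against 2868, 3098 and 3006 CPM at 1 day. Every YBX3 KD library of either day was therefore above every control KD library, and all 6 pairs were higher, by 1.33-fold to 1.77-fold. The log2 fold change over both days was 0.65 (SE 0.25, adjusted p = 0.204) for the row and 0.56 (SE 0.09, adjusted p = 0.00674) for the sum, which remained short of the threshold of the study. Blocked by letter, the adjusted p was 0.031 for the row and 0.00248 for the sum. Over the 27 settings, which include those with the copy added, the adjusted p ranged from 0.00101 to 0.358.

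Complex V, ATP synthase, makes ATP from the proton gradient, and mt-Atp6 (chrM:7927-8607) encodes the subunit that forms its proton channel. The deposited row was at 172.1, 394.5, 245.2 and 179.7 CPM in control KD and at 287.8, 296.9, 245.4 and 235.4 CPM in YBX3 KD at 0 day. At 1 day mt-Atp6 was at 196.6 and 99.6 CPM in control KD and 678.6, 164.1 and 233.8 CPM in YBX3 KD. The groups overlapped on both days, and 4 of 6 pairs were higher after YBX3 KD. With Atp6-ps added all 6 pairs were higher, by 1.03-fold to 1.66-fold, and the sum was 3268 to 5148 CPM against 4694 to 7506 CPM at 0 day. It was 3271 and 2857 CPM against 4018, 4363 and 4731 CPM at 1 day. Over both days the log2 fold change was 0.53 (SE 0.36, adjusted p = 0.514) for the row and 0.42 (SE 0.13, adjusted p = 0.122) for the sum. Blocked by letter, the sum had a log2 fold change of 0.46 (SE 0.11, adjusted p = 0.0294) and so passed at 0.05, which the row did not. Over the 27 settings, which include those with the copy added, the adjusted p of mt-Atp6 ranged from 0.0294 (the sum with the block) to 0.73.

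**Figure D5:**
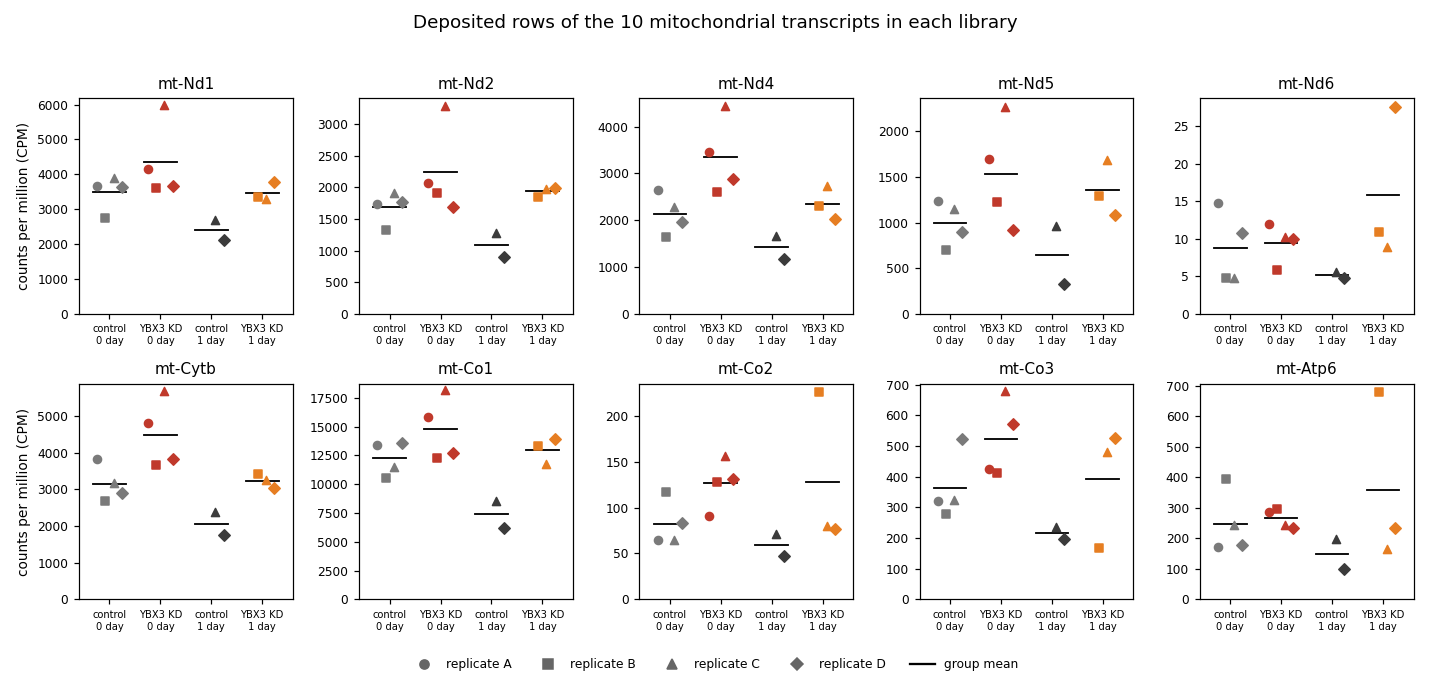
Level of each deposited row in each library (CPM, linear axis from 0), with groups along the x axis, the replicate letter as the marker and a line at the group mean. YBX3 KD replicate C at 0 day is the highest library for 7 of the 10 transcripts and control KD replicate D at 1 day the lowest for 8; mt-Co2, mt-Co3 and mt-Atp6 show YBX3 KD replicate B at 1 day apart from the other replicates.

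Within proliferating myoblasts (0 day), the 10 estimates were all above 0, with log2 fold changes of 0.10 (mt-Atp6) to 0.65 (mt-Nd4). None was called by edgeR, where 0.0475% of all genes met the threshold of the study and 0.481% had an adjusted p under 0.05. The lowest adjusted p was 0.206, and 2 (mt-Nd4 and mt-Cytb) had an unadjusted p under 0.05, as did 2027 of all genes. With the letter as a block mt-Nd4 had an adjusted p of 0.0209 (log2 fold change 0.64, SE 0.11), where 2.85% of all genes passed at 0.05. DESeq2 called none at either threshold, and limma-voom gave 2 at an adjusted p under 0.05, where 1782 of all genes passed. With the copies added and the block there were 2 (mt-Nd4 and mt-Co3), the mt-Co3 sum having an adjusted p of 0.0203 with the block and 0.0699 without it. The share of all genes that passed with both is not given here. Without YBX3 KD replicate C the median of the 10 estimates was 0.25 in place of 0.46. The unadjusted count was 4 in place of 2 without YBX3 KD replicate D at 0 day or replicate B at 1 day. None of the deposited rows had groups without overlap at 0 day, against 4.83% of all genes with YBX3 KD wholly higher. The estimates of mt-Nd6 and mt-Atp6 were small enough that leaving out 1 library turned their sign. That was so for mt-Nd6 without control KD replicate B (-0.095) or C (-0.096) or YBX3 KD replicate A (-0.021), and for mt-Atp6 without control KD replicate A (-0.037) or D (-0.028).

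Within differentiating myoblasts (1 day), the estimates were larger, from 0.53 (mt-Nd1) to 1.60 (mt-Nd6) with a median of 0.85, but rested on 2 control KD libraries. No transcript passed in edgeR's test, with a lowest adjusted p of 0.392, and among all genes 0% met the threshold of the study and 0.0712% had an adjusted p under 0.05. Of the 10, 9 had an unadjusted p under 0.05, as did 1327 of all genes. Without control KD replicate D this count was 1 and the median estimate 0.59, with the lone control library assumed to vary like the other groups. Blocked by letter in edgeR, the adjusted p-values were 0.0632 to 0.238, so no transcript passed there either. DESeq2 gave 1 (mt-Co1) at an adjusted p under 0.05, where 152 of all genes passed, and limma-voom none. DESeq2 with the block called 5 (mt-Nd2, mt-Nd4, mt-Nd5, mt-Cytb and mt-Co1) at the threshold of the study, which 157 of all genes met. In 8 of the 10 rows every YBX3 KD library was above both controls, and 10.5% of all genes had that order. The exceptions were mt-Co3 and mt-Atp6, for which the sums with the copies did not overlap either.

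The difference of the YBX3 KD effect between the days was itself tested and was above 0 for all 10, with estimates of 0.07 (mt-Nd4) to 1.48 (mt-Nd6) on the log2 scale. None passed (all adjusted p = 1 in edgeR), none had an unadjusted p under 0.05, and 0% of all genes passed at either threshold. DESeq2 gave 2 with an unadjusted p under 0.05 and none after adjustment, and limma-voom none. The signs rested on single libraries for 4 transcripts. Without control KD replicate D at 1 day the differences of mt-Nd4, mt-Nd5 and mt-Cytb were -0.16, -0.13 and -0.072, and without YBX3 KD replicate B at 1 day that of mt-Co2 was -0.23. For mt-Nd4 the difference was also below 0 without control KD replicate A at 0 day (-0.04), YBX3 KD replicate B at 0 day (-0.018) or YBX3 KD replicate C at 1 day (-0.038).

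Upon the move from 0 day to 1 day, the 10 transcripts had lower estimates in control KD, with log2 fold changes of -0.75 (mt-Co3) to -0.46 (mt-Co2). For mt-Co1 the mean was 12230 ± 1481 CPM (n = 4) at 0 day and 7380 ± 1670 CPM (n = 2) at 1 day, a log2 fold change of -0.73 (SE 0.20). None passed in edgeR's test (all adjusted p = 1), where 0% of all genes passed at either threshold. An unadjusted p under 0.05 was reached by 5 (mt-Nd1, mt-Nd2, mt-Nd4, mt-Cytb and mt-Co1) and by 251 of all genes. That count was 0, and the median -0.38 in place of -0.63, without control KD replicate D at 1 day, and it was 2 when either replicate A or replicate C of the 0 day controls was left out. DESeq2 and limma-voom gave none after adjustment. In 5 rows (mt-Nd1, mt-Nd2, mt-Cytb, mt-Co1 and mt-Co3) both libraries at 1 day were below all 4 at 0 day, an order that 2.93% of all genes showed. In YBX3 KD, 7 estimates were below 0 and 3 above, from -0.51 (mt-Nd4) to 0.74 (mt-Nd6), and again none passed in edgeR's test (0% of all genes). The unadjusted p was under 0.05 for 2 (mt-Nd4 and mt-Cytb) and for 791 of all genes. It was under 0.05 for none of the 10 when replicate A or replicate C at 0 day, or replicate D at 1 day, was left out, and for 1 without YBX3 KD replicate C at 1 day. Without replicate C at 0 day the median was -0.0062 in place of -0.20. DESeq2 and limma-voom gave none after adjustment. The values above 0 were those of mt-Nd6, mt-Atp6 (0.43) and mt-Co2 (0.01), and with the copies added the last pair became -0.38 and -0.30. The steps share their 0 day libraries with the YBX3 KD comparison at 0 day and their 1 day libraries with that at 1 day. The step in control KD and the YBX3 KD effect at 1 day thus rest on the same 2 control KD libraries.

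Across the 13 libraries the 10 transcripts varied together to different degrees. Over the 45 pairs of deposited rows, the correlation of log2 CPM ranged from -0.18 to 0.98 with a median of 0.55. With the copies added it ranged from 0.38 to 0.98 with a median of 0.90, and the 9 pairs with mt-Nd6 were the lower ones (0.38 to 0.63, against 0.80 to 0.98 for the other 36). These points share libraries, groups and scaling factors, so the values describe the table only. Outside the mitochondrial genome, the 5 tested genes whose log2 CPM was most like the mean of the 10 over the 13 libraries were Gm28661 (r = 0.97), Zbtb21 (0.93), Zfp346 (0.92), Gm28437 (0.92) and Man2c1 (0.92). Of these, Gm28661 and Gm28437 are the copies of mt-Co2 and mt-Co3, Zbtb21 and Zfp346 encode zinc finger proteins, and Man2c1 encodes a cytosolic mannosidase.

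The nuclear genes that work with these transcripts had small estimates upon YBX3 KD over both days. Nuclear encoded subunits of complexes I, III, IV and V had 15 estimates above 0 and 64 below among 79 tested of 85 listed, with a median log2 fold change of -0.09. None had an adjusted p under 0.05 in edgeR's test. An unadjusted p under 0.05 was reached by 13 of the 79, a share close to that of all genes (2797 of 16848). The smallest p was that of Ndufv2, a subunit of the NADH binding module of complex I, at 82.0 ± 5.51 CPM in YBX3 KD and 95.5 ± 5.45 CPM in control KD (log2 fold change -0.23, SE 0.06, adjusted p = 0.0666). The smallest p among estimates above 0 was that of Cox7b2 (0.15, SE 0.12, adjusted p = 0.576). Thus, over both days, the median of the nuclear subunits was below 0 and that of the mitochondrial transcripts above it. By day, the nuclear subunits had 9 estimates above 0 and 70 below at 0 day (median -0.11). At 1 day they had 36 above and 43 below (median -0.045). The difference between these lists was not tested.

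Factors of mitochondrial transcription and replication, such as the polymerase Polrmt and the packaging factor Tfam, gave 6 estimates above 0 and 10 below among 16 tested (median -0.00636). None had an unadjusted p under 0.05. The smallest p-values were those of Polg2, an accessory subunit of the mitochondrial DNA polymerase (-0.17, SE 0.11, adjusted p = 0.473), and Twnk, the mitochondrial helicase (0.10, SE 0.07, adjusted p = 0.554). Factors that process and stabilize mitochondrial RNA, such as Lrpprc, Slirp and the RNase P subunits, gave 3 above 0 and 17 below among 20 (median -0.08). Of these, 1 had an unadjusted p under 0.05, Hsd17b10, a subunit of mitochondrial RNase P (-0.21, SE 0.07, adjusted p = 0.134), and Pde12, a mitochondrial RNA deadenylase, had the smallest p among estimates above 0 (0.11, SE 0.15, adjusted p = 0.762). Regulators of mitochondrial biogenesis gave 3 above 0 and 3 below (median -0.05). Of these 6, 2 had an unadjusted p under 0.05, both with estimates below 0. They were Nrf1, a transcription factor for nuclear genes of respiration (-0.20, SE 0.09, adjusted p = 0.249), and Gabpa, a subunit of nuclear respiratory factor GABP (-0.12, SE 0.05, adjusted p = 0.271), which is named here after its value was seen. The smallest p among estimates above 0 was that of the nuclear receptor Esrra (0.06, SE 0.09, adjusted p = 0.761). No gene of these 3 lists had an adjusted p under 0.05 in edgeR's test.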

How the data were processed

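For the C2C12 libraries the methods of the paper name an Illumina stranded mRNA kit and also a TruSeq RNA preparation kit. The authors aligned the reads with Salmon (version not given in the sources used here) to GRCm39 with a Gencode annotation. They deposited estimated counts per gene as whole numbers without normalization. The step that summed them by gene is not given in the sources used here. All 13 columns matched a labeled sample. Groups came from the labels and replicates were named by their letters. The titles also carry a number, which disagrees with the letter at 1 day. From these counts, genes were kept with filterByExpr on the 4 groups in edgeR 4.0.16 (R 4.3.3, limma 3.58.1), libraries were scaled by TMM (factors 0.969 to 1.02), and all 16848 genes were fitted by the quasi-likelihood method (estimateDisp, glmQLFit with legacy = FALSE, glmQLFTest), with Benjamini-Hochberg adjustment over all tested genes. The contrast over both days had the day as a term, and the others came from a model with 1 coefficient per group. Calls needed a fold change over 1.3 in either direction with an adjusted p under 0.001, the threshold of the study, and counts at an adjusted p under 0.05 are given beside them.

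Positions and lengths were those of GENCODE on GRCm39, joined by Ensembl identifier (54969 of 55642 rows had a symbol). Copies were found by BLAST 2.17.0 (at least 99% identity over at least 100 bases and 80% of the copy). The members and gene lists were chosen with earlier results of these data known. Named were all 10 transcripts, Ybx3, the other genes of the mitochondrial genome, the 5 genes most like the mean of the 10, and the smallest p in each direction of each list. Residuals of log2 CPM correlated above 0.1 for all 16 pairs of libraries of different groups with the same letter (0.117 to 0.73, median 0.338), for 11 of 46 pairs with different letters and for 8 of 16 pairs with the same title number, so the letters were taken to pair the samples. No 2 libraries of a group were duplicates (chi-square per degree of freedom at least 18 over 16 pairs). The methods were tested on simulated data. The alternatives tried were DESeq2 1.42.0, limma-voom, other scaling and filters, no day term, blocks by letter and by title number, only the libraries compared, another adjusted p, and each library left out; adding the copies, the legacy fit, DESeq2 with the letter block and the combinations of copies and block or of these with an adjusted p under 0.05 were chosen after seeing the data. The fewest counts of a transcript were those of mt-Nd6 (185 to 1078 per library).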

Additional observations from a re-analysis of the deposited data

How the results depend on the processing

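No setting turned the sign of any of the 10 transcripts over both days or at 1 day. Of 1610 values of single transcripts over all comparisons and 28 settings, 1584 kept their sign and 26 did not. Of those, 9 did not come from leaving out a library and concerned the step from 0 day to 1 day in YBX3 KD. For mt-Co2 it was -0.25 with limma-voom, -0.28 with the letter as a replicate block, -0.095 with the title number as a block, -0.30 with the copies added, -0.26 with the copies and the letter block, and -0.29 with DESeq2 and the letter block. For mt-Atp6 it was -0.39 with limma-voom, -0.38 with the copies and -0.33 with the copies and the letter block. The cause was not tested. Leaving out each library in turn gave, for the step in YBX3 KD, -0.70 to 0.27 for mt-Co2, -0.42 to 0.78 for mt-Atp6, -0.32 to 0.047 for mt-Nd2 and -0.36 to 0.092 for mt-Nd5. The libraries that turned those signs were YBX3 KD replicate C at 0 day for mt-Nd2 and mt-Nd5, YBX3 KD replicate B at 1 day for mt-Co2 and mt-Atp6, and YBX3 KD replicate A at 0 day for mt-Co2 (-0.12). For the effect at 0 day it gave -0.096 to 0.51 for mt-Nd6 and -0.037 to 0.41 for mt-Atp6. For the difference between days it gave -0.16 to 0.36 for mt-Nd4, -0.13 to 1.45 for mt-Nd5, -0.072 to 0.39 for mt-Cytb and -0.23 to 0.82 for mt-Co2.

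None of the 10 was called in any comparison except under DESeq2 with the letter as a block, which called 3 over both days (mt-Nd4, mt-Nd5 and mt-Cytb), 1 at 0 day (mt-Nd4) and 5 at 1 day (mt-Nd2, mt-Nd4, mt-Nd5, mt-Cytb and mt-Co1); that setting called 424, 251 and 157 of all genes, against 19, 8 and 0. Over both days DESeq2 without the block called 188 and limma-voom 185 of all genes, and at an adjusted p under 0.05 they gave 1179 and 3088, against 436. With an adjusted p under 0.05 alone there were 2 over both days, 4 with the copies added and 6 with the letter block, where 2.59%, 2.6% and 10.6% of all genes passed. There were 8 with the copies and the letter block and 8 with DESeq2 and the letter block. At 0 day these settings gave 0, 0, 1, 2 and 3, and at 1 day 0, 0, 0, 0 and 8. Of all genes at 0 day, 0.481% passed in the main fit and 2.85% with the letter block. Shares of all genes are not given here for the copies with the letter block or for DESeq2 with it. In the latter at least the 424, 251 and 157 genes called at the stricter threshold passed. These counts thus stand here without their baseline and are not read as a result about the 10 transcripts. Without the day term there were 0. In edgeR the letter block changed no call at the threshold of the study. DESeq2 with the letter block gave 2 (mt-Nd4 and mt-Co3) at an adjusted p under 0.05 for the step in control KD. How many of all genes passed there is not given here, so this count has no baseline beside it. The mean share of the 10 rows moved with the copies added, to 3.51% and 4.65% at 0 day and 2.32% and 3.78% at 1 day (control KD and YBX3 KD), and in YBX3 KD at 1 day to 2.74% with all 13 protein-coding genes. The fewest counts behind a value were those of mt-Nd6, and at 1 day the 2 control KD libraries limited every comparison.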

Other observations

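The other genes of the mitochondrial genome were not among the 10 transcripts and are given as values. The 22 rows of mitochondrial tRNAs were listed at 0 in every library. The ribosomal RNAs mt-Rnr1 and mt-Rnr2 were at 156 ± 84.8 and 369 ± 149.7 CPM per kb (SD, n = 13), each below 9 of the 10 messenger RNAs with copies added and below 8 of the 10 deposited rows. Because the libraries were prepared for messenger RNA, these rows do not give the levels of ribosomal RNAs or tRNAs in the cells. For mt-Rnr1, YBX3 KD replicate D at 1 day was at 358.3 CPM, and the log2 fold change over both days was 0.29 (SE 0.37, adjusted p = 0.733). For mt-Rnr2 it was 0.53 (SE 0.33, adjusted p = 0.451). The small complex I subunits mt-Nd3 and mt-Nd4l and the ATP synthase subunit mt-Atp8, whose gene shares 43 bases with mt-Atp6, had log2 fold changes of 0.27 (adjusted p = 0.643), 0.70 (adjusted p = 0.0777) and 0.38 (adjusted p = 0.425) by edgeR's test, so none passed. In mt-Nd3 the mitochondrial row held 36.6% to 100% of its sum with Gm28438, and in mt-Nd4l 48.8% to 85.0% of its sum with Gm10222. In both, YBX3 KD replicate B at 1 day had the lowest value, the library that also had the lowest value for mt-Co3 and the highest for mt-Co2 and mt-Atp6. No annotated copy of mt-Atp8 met the limits used, although its gene lies inside the shared stretch.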
